A study of Mus musculus with 12 samples.

Results

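MEFs, mouse embryonic fibroblasts, that received viruses for 5 heart transcription and chromatin factors were compared with MEFs that received 3 of the same factors. The question was what MESP1 and SMARCD3 added to the expression pattern set by GATA4, TBX5 and MEF2C. Of the 12 arrays of the series, the 3 of TF group 2 were set against the 3 of TF group 1. These 6 were chosen by their labels alone, while the spread of each gene was estimated from all 12. The comparison covered 22626 of the 22690 probe sets of each array, every one except the controls of the manufacturer. All 4 groups of the series were C57BL/6 MEFs with a virus for M2rtTA, which switches on the delivered genes in the presence of doxycycline, and all were induced with it for 7 days. The cultures of the study were also described as holding valproic acid, a histone deacetylase inhibitor. TF group 1 carried GATA4, TBX5 and MEF2C, and TF group 2 carried these and MESP1 and SMARCD3. TF group 3, with MYOCD and SRF as well, and the negative control, with M2rtTA alone, appear below for their levels and in 1 comparison with each other. The delivered cDNAs were human, except that Mesp1 was of mouse. Each factor had its own virus, so TF group 2 received more viruses than TF group 1, and the number of viruses and the identity of the added factors cannot be told apart. Nor can the effects of MESP1 and SMARCD3, which were added together. RNA came from whole, unsorted cultures, and each group had 3 cultures that are labelled as biological replicates.

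MESP1 is a basic helix-loop-helix protein of the early mesoderm that gives rise to heart progenitors, and proteins of this class bind a short DNA motif called the E-box. SMARCD3, also called BAF60c, is a subunit of the BAF complex, which slides and evicts nucleosomes and works with GATA4 and TBX5 in the forming heart. GATA4, TBX5 and MEF2C are DNA-binding activators of genes of the heart muscle cell, among them those of the contractile sarcomere and of calcium handling.

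The delivered Mesp1 was seen in its group. Its signal, the linear brightness value deposited for a probe set, was 112, 114 and 121 without the virus and 2122, 2146 and 1996 with it. The groups lay far apart, and Mesp1 was 18.1-fold higher in TF group 2 (log2 change 4.18, SE 0.22, adjusted p = 5.01e-06). In TF group 3, which received the same virus, the signals were 1726, 1586 and 1253. Smarcd3 gave 727, 574 and 719.9 in TF group 1 against 924, 877 and 955 in TF group 2. The negative control, also without the SMARCD3 virus, gave 350, 249 and 292, so the signal was already higher with the factors of TF group 1. Every array of TF group 2 was above every array of TF group 1, as in 14.1% of all genes, but the log2 change of 0.46 (SE 0.13) did not pass the test (adjusted p = 0.06). How well probes designed for mouse transcripts read the human SMARCD3 cDNA was not tested. Adjusted p-values are from limma with Benjamini-Hochberg adjustment over all 12393 genes, each with 1 probe set. A gene was called where this p was under 0.05 and the fold change over 1.5.

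For the 3 shared factors no difference between the groups was called. They were delivered as human cDNAs, and how well the mouse probe sets read these was not tested, so the values may hold the transcripts of the cells alone. Gata4, Tbx5 and Mef2c had log2 changes of -0.43 (adjusted p = 0.794), -0.54 (adjusted p = 0.0491) and 0.00 (adjusted p = 0.995), and that of Tbx5 stayed under the fold threshold. Myocd, a coactivator of muscle genes whose virus neither group received, had signals of 31.96, 35.2 and 31.3 in TF group 1 against 80.9, 72.3 and 71.0 in TF group 2. It was 2.28-fold higher with the added factors (log2 change 1.19, SE 0.19, adjusted p = 0.00458). This rested on 1 of its 2 probe sets, and the call was lost when both were averaged. Srf, its partner at muscle promoters, had a log2 change of 0.13 (adjusted p = 0.59). In TF group 3, which received human MYOCD and SRF, these mouse probe sets had mean signals of 44.9 and 439. The negative control had 46.3 and 792, so neither signal rose with its own virus.

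**Figure D1:**
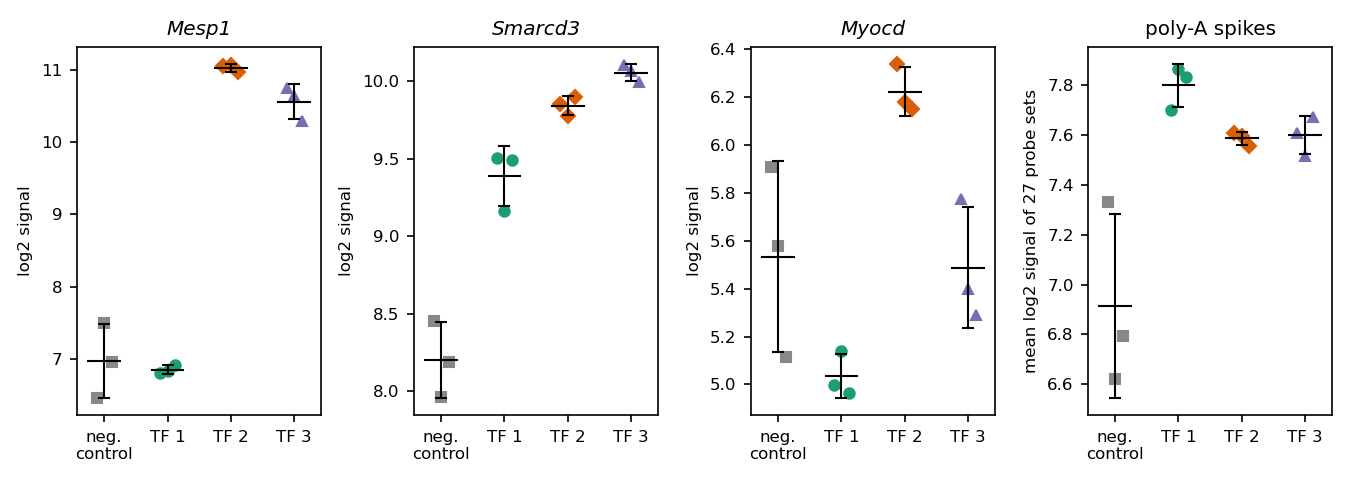
Log2 signal of Mesp1, Smarcd3 and Myocd, and the mean log2 signal of 27 poly-A spike probe sets, in each of the 12 arrays (points) with the mean and SD of 3 arrays per group (black bars); the axes do not start at 0. Mesp1 rises with its virus in TF groups 2 and 3, and from TF group 1 to TF group 2 the spikes fell by 0.21 on the log2 scale. The mouse probe set of Myocd is highest in TF group 2. It shows no rise over the negative control in TF group 3 (means of 44.9 and 46.3), which received human MYOCD, so it does not give total MYOCD.

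Across the transcriptome, adding MESP1 and SMARCD3 left 268 genes higher and 240 lower, which is 2.16% and 1.94% of the 12393 genes. Over probe sets, 384 were higher and 355 lower, 1.7% and 1.57% of the 22626. The median log2 change was 1.11 among the genes called higher and -0.82 among those called lower, and 61 genes rose but 16 fell by over 4-fold. In 52 of the genes called higher and 26 of those called lower the lower group had a mean signal below 32 (a log2 value of 5), where replicate arrays scattered most, and the folds of such genes are lower bounds, with 32 in place of the dim mean. With these at their bounds, and without the genes below 32 in both groups, the medians were 0.99 and -0.79, and 39 genes rose but 6 fell by over 4-fold. Of the genes with over 1 probe set, 31 of 102 called higher and 21 of 104 called lower were called that way at every probe set. In bulk samples of this kind, fewer cells of a type and less RNA per cell cannot be told apart.

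The balance of rises and falls depended on how the arrays were scaled. The deposited values have the same trimmed mean, 500, on all arrays. Probe sets for poly-A spikes, bacterial transcripts that are usually added to RNA before labelling, were lower by 0.21 in TF group 2 on the log2 scale (7.80 and 7.59). Hybridization spikes were lower by 0.24 and 18S rRNA by 0.26. All 3 arrays of TF group 2 were below all 3 of TF group 1 in each of these controls (exact permutation test, two-sided, p = 0.1, the smallest that 3 against 3 arrays allows). Scaled to the poly-A spikes, the values of TF group 2 shifted up, to a median log2 change of 0.20 in place of -0.01 over probe sets, with 245 genes called higher and 42 lower. The share of higher ones among the called probe sets was then 84.1% in place of 52%. The falls below are therefore relative to the other genes of the array, and the genes whose fall also passed under this scaling are named as such. The scaling also adds spread, since the spike means differed between replicates, from 6.62 to 7.33 in the negative control. As the fit pools the spread of all 4 groups, a call lost under this scaling can come from the shift or from the added spread. These were not separated.

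**Figure D2:**
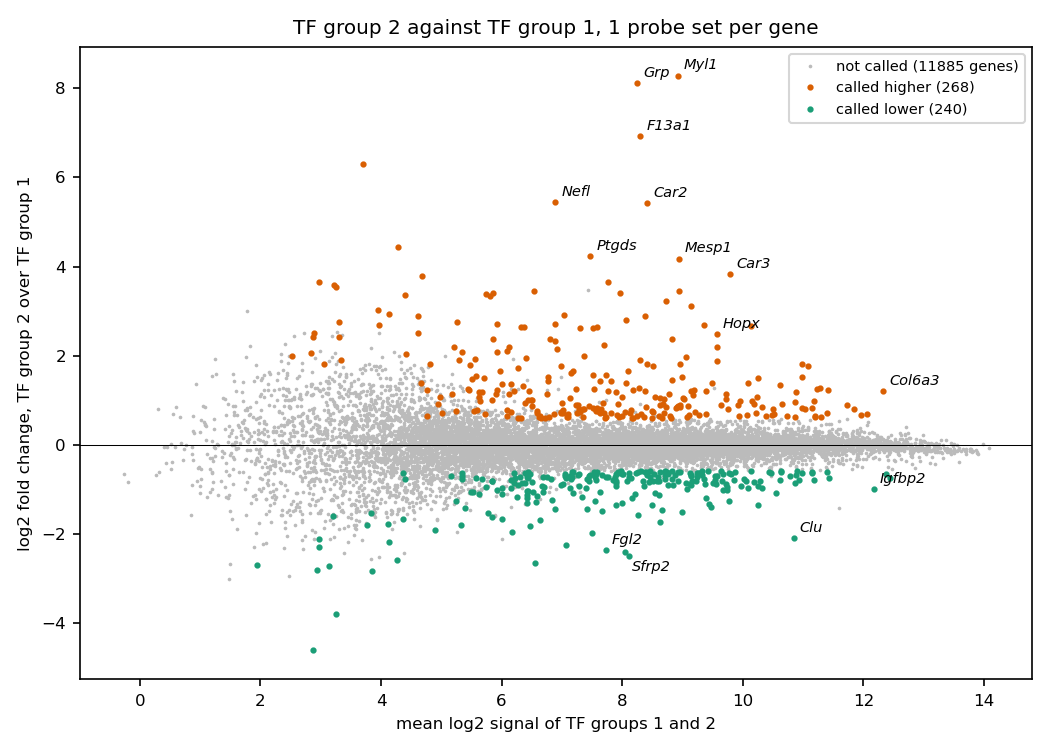
Log2 fold change of TF group 2 over TF group 1 against the mean log2 signal of both groups, 1 point per gene for 12393 genes (orange called higher, green called lower, grey not called). The fitted changes of the 268 increases reach further from 0 than the 240 decreases, with Myl1, Grp and F13a1 at the top.

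The largest fitted increase was in Myl1, an essential light chain of the myosin of fast skeletal and embryonic heart muscle. Its signals were 21.0, 23.5 and 41.9 in TF group 1 against 8268, 8686 and 8705 in TF group 2, from near the floor to among the bright genes of the array. It was at least 267-fold higher (log2 change 8.29, SE 0.30, adjusted p = 5.52e-07). The negative control gave 40.4, 24.9 and 19.1, as dim as TF group 1, and TF group 3 gave 3743, 3839 and 4098. Grp, which encodes the neuropeptide gastrin-releasing peptide, went from 9.43, 19.5 and 33.0 to 4916, 5193 and 5042. It rose at least 158-fold (adjusted p = 4.15e-06) and lay between the 2 groups in TF group 3, at 438, 533 and 448. F13a1, the catalytic subunit of clotting factor XIII, gave 29.5, 26.5 and 30.0 and then 3354, 3734 and 3374, at least 109-fold more (adjusted p = 1.45e-09). It had the smallest adjusted p of all genes.

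The 12 genes described here are ranked by the fitted change, and where TF group 1 was below 32 the bounds do not give their order or place them above genes outside the 12. The delivered Mesp1, described above, is among the 12. Car2 and Car3 encode carbonic anhydrases. Car2 rose 42.8-fold, from 56.1, 42.4 and 59.7 to 2207, 2272 and 2229, and Car3 rose 14.3-fold, from 184, 274 and 256 to 3572, 3043 and 3441. Nefl, the light neurofilament chain of axons, was at 19.9, 11.04 and 26.3 in TF group 1 against 751, 781 and 824 in TF group 2, at least 24.5-fold higher. Ptgds, a prostaglandin synthase, rose 18.7-fold from 40.3, 40.2 and 42.3 to 734, 789 and 777. Tagln3, a neuronal relative of transgelin, rose 12.6-fold. The other 3 were dim in TF group 1 and reached a modest signal: the thyroid hormone transporter Slco1c1 (at least 3.61-fold), the Wnt agonist Rspo1 (at least 2.84-fold) and Lmod2, a nucleator of sarcomeric actin (at least 2.98-fold). The call of Rspo1 was lost in a fit of the 6 arrays alone, and that of Lmod2 when TF group 1 replicate 2 or any array of TF group 2 was left out.

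In TF group 3, with MYOCD and SRF as well, the levels of these 12 genes differed from gene to gene. Car2 and Car3 had mean signals of 2677 and 5309.6 there, against 2236 and 3345 in TF group 2. Grp, Nefl and Ptgds had 471, 132 and 255 against 5049, 785 and 766. Lmod2 was again near the floor, with a mean of 5.84. These are side-by-side levels, since a comparison with TF group 3 would share the arrays of TF group 2.

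**Figure D3:**
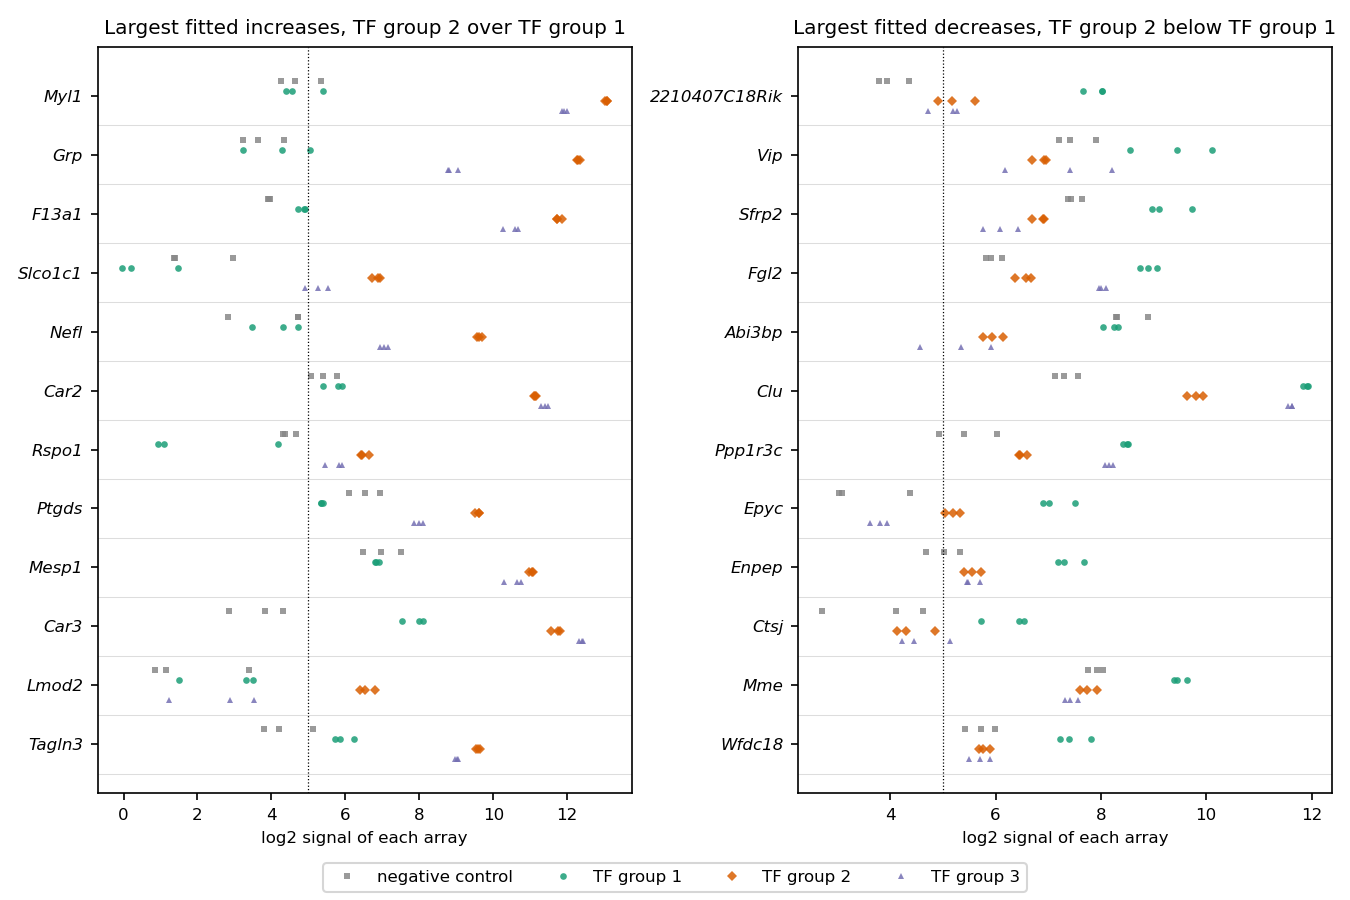
Log2 signal in each of the 12 arrays for the 12 genes with the largest fitted increase (left) and the 12 with the largest fitted decrease (right) in TF group 2 against TF group 1; each point is 1 array and the dotted line marks a signal of 32. The delivered Mesp1 is among the increases. For Myl1, Grp and F13a1 all 6 arrays of the negative control and TF group 1 lie more than 5 log2 units below those of TF group 2, and Clu is bright in TF groups 1 and 3 and lower in TF group 2.

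The 12 largest fitted decreases included Clu, the brightest of them in TF group 1. Clu, the secreted chaperone clusterin, had signals of 3862, 3657 and 3895 in TF group 1 against 800.3, 983 and 889 in TF group 2. It fell 4.28-fold (log2 change -2.10, SE 0.11, adjusted p = 5.01e-06), at all 4 of its probe sets, while TF group 3 gave 3149.6, 3166 and 3008 and the negative control 139.7, 158 and 189.6. So its level was high with 3 or 7 factors and lower with 5. Sfrp2, a secreted binder of Wnt proteins, went from 854, 547 and 501 to 120.0, 121 and 104, a 5.37-fold fall. Fgl2, a fibrinogen-like protein, went from 538, 479 and 431 to 95.7, 82.6 and 103, 5.15-fold lower. Abi3bp, a matrix protein, fell 4.79-fold, and Ppp1r3c, a regulator of glycogen synthesis, 3.94-fold. The membrane peptidases Enpep and Mme fell 3.54-fold and 3.32-fold. Ppp1r3c and Mme were each called lower at 1 of their 2 probe sets. Wfdc18, a small secreted protein, fell 3.24-fold. The transcript 2210407C18Rik fell 6.34-fold, from 258, 201 and 259 to 48.6, 36.0 and 30.1. As side-by-side levels, the negative control had means of 179 (Sfrp2), 61.8 (Fgl2), 43.8 (Ppp1r3c), 32.1 (Enpep), 241 (Mme), 52.2 (Wfdc18) and 16.3 (2210407C18Rik). These lay below the means of TF group 1, whereas Abi3bp, at 361 in the control, did not. Each of these 9 falls also passed with the arrays scaled to the poly-A spikes. The neuropeptide gene Vip (log2 change -2.50, signals of 695, 373 and 1106 against 104, 125 and 121), the cartilage proteoglycan gene Epyc (-1.95) and the cathepsin gene Ctsj (at least 2.35-fold lower) did not pass there. Vip was also lost without TF group 1 replicate 1 or 3 or TF group 2 replicate 1, and Ctsj under 14 of the 22 alternatives run for it.

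Promoters of 4 of the genes that moved most, 3 that rose and 1 that fell, are shown because MESP1 belongs to a class that binds E-boxes. They are examples and do not stand for the other rises and falls. Each window holds 250 bases before and 50 after a RefSeq transcript start on GRCm38.p6, in the direction of the gene, and capitals mark the E-box, CANNTG, which reads the same way on both strands. The array measures transcripts and not binding, and a match is not a site.
Myl1, chr1:66945007-66945306, minus strand: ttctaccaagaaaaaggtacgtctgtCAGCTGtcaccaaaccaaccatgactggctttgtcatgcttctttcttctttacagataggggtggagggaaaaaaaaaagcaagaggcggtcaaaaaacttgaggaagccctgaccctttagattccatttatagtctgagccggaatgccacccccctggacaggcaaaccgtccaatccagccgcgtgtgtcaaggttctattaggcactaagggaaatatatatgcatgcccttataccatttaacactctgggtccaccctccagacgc
Ptgds, chr2:25469700-25469999, minus strand: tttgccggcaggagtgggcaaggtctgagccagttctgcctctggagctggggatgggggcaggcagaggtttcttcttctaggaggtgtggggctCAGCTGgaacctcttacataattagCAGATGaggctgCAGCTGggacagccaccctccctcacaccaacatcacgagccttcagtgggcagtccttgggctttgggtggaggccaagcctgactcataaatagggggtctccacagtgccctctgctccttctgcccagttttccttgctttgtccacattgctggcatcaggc
F13a1, chr13:37050195-37050494, minus strand, the upstream of its 2 starts: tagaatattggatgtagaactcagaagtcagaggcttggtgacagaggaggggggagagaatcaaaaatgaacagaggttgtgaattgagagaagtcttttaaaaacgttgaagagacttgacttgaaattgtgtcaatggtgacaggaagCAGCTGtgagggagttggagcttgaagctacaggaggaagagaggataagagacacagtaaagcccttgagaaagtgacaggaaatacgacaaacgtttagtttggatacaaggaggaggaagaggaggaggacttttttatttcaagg
Sfrp2, chr3:83766071-83766370, plus strand: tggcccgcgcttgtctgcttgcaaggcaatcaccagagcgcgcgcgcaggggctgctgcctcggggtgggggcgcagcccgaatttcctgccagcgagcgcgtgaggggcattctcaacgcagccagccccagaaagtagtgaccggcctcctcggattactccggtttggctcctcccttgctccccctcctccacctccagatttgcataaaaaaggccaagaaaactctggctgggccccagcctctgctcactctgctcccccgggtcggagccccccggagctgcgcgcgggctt
Myl1 holds 1 match at position -224 from the start, Ptgds 3 at -154, -129 and -117, F13a1 1 at -99, and Sfrp2 none. Other genes went the opposite way: the windows of Rspo1 and Tagln3, which rose, hold none. Those of Fgl2 and Ppp1r3c, which fell, hold 3 and 2. A match was in 77.8% of only 9 windows of the 12 largest increases and 53.8% of 13 windows of the 12 largest decreases. The 9 include the window of Mesp1, with 2 matches, although Mesp1 was itself delivered by virus. The motif is short and common. It was in 74.3% of 284 windows of 203 genes called higher and in 69.9% of 259 windows of 183 genes called lower. Among 12566 windows of all measured genes 66.5% held it, and 72.3% of all 32851 windows listed.

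Of 29 measured cardiac sarcomere genes 6 were higher and 1 lower, where 2.16% of all genes were higher and 1.94% lower, which is the background for the counts of every list below. The median log2 change of the list was 0.23, against -0.01 over all genes. Ttn, the giant spring protein titin, went from 50.6, 25.6 and 25.8 to 195, 208 and 198. It was 6.22-fold higher (adjusted p = 2.56e-04), at both of its probe sets. Smpx, a small stretch-responsive muscle protein, rose 3.41-fold from 1163, 1225 and 1127 to 3962, 4165 and 3868, although its call was lost without TF group 2 replicate 2. Myl2, the ventricular regulatory light chain, was at 16.0, 24.8 and 21.1 in TF group 1 against 72.1, 82.3 and 72.9 in TF group 2, at least 2.36-fold higher and still dim. Ankrd1, a stress-responsive titin partner, rose 2.34-fold with a log2 change of 1.23 (SE 0.04). Mybpc3, cardiac myosin binding protein C, rose 1.9-fold (adjusted p = 4.79e-04). The remaining one was Lmod2, described above. The alternative fits were not run for Ankrd1 and Mybpc3.

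The atrial light chain moved the other way from the ventricular one. Myl7 had signals of 117, 84.7 and 102 in TF group 1 against 34.9, 32.9 and 29.7 in TF group 2, a 3.09-fold fall that also passed with the poly-A scaling (adjusted p = 0.00166 as deposited). In TF group 3 it was at 86.0, 90.2 and 81.1. Several genes often used to mark heart muscle cells did not pass. Tnnt2, cardiac troponin T, was already bright with 3 factors and had signals of 1794, 1642 and 1768 in TF group 1 against 2027, 2014 and 2045 in TF group 2, under the fold threshold (log2 change 0.23, SE 0.05, adjusted p = 0.0244). Actc1, cardiac actin, had a log2 change of 0.40 (adjusted p = 0.355), and Nppa, the atrial natriuretic peptide, one of 0.39 (adjusted p = 0.398). Myh6, the alpha myosin heavy chain, was below 32 in all 6 arrays. In TF group 3 the mean signals of Tnnt2, Actc1, Nppa and Myh6 were 5499.9, 1291, 1609.9 and 208. Genes of heart muscle, smooth muscle, endothelium and fibroblasts were also assayed by PCR in such cells. Of these 40 were on the array, the delivered factors other than Mesp1 included, and 4 of them were higher (Myl2, Casq2, Hopx and Myocd), 1 lower (Myl7) and 35 not called.

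Calcium handling and conduction genes changed little as a group. Of 30 measured, 2 were higher and 1 lower, with a median of -0.05 (0.16 with the poly-A scaling). Casq2, which buffers calcium in the cardiac sarcoplasmic reticulum, went from 185, 152 and 154 to 557, 674 and 589. It was 3.71-fold higher (adjusted p = 0.00281) and reached 1301, 1432 and 1335 in TF group 3. Trdn, its anchor triadin, rose at least 2.08-fold at low signals (33.2, 33.7 and 20.0 to 71.4, 62.8 and 66.0). Asph fell 1.55-fold, which did not pass with the poly-A scaling. Among 8 natriuretic peptide and gap junction genes Gja5, a connexin of the atria and conduction system, was at least 1.37-fold higher, but the call was lost without TF group 1 replicate 1 or 3 or any array of TF group 2. Gjb2, an epithelial connexin, fell 1.6-fold, not with the poly-A scaling.

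Skeletal muscle genes did not follow Myl1. Of 32 measured, 2 were called, both higher, and the median was 0.16. Their summed signal went from between 1618 and 1803 in TF group 1 to between 10750 and 10910 in TF group 2, most of it Myl1. The other called gene was Myh1, a fast myosin heavy chain, at 351, 341 and 462 in TF group 1 against 994, 823 and 862 in TF group 2. It was 2.34-fold higher (adjusted p = 0.00126), but not when its probe sets were averaged. Among the regulators that define skeletal muscle, Myog and Myf6 had means below 32 in both groups, while Myf5 and Myod1 did not. Myog, Myf5 and Myf6 had means of 23.2, 26.5 and 17.8 in TF group 1 against 14.5, 39.1 and 19.5 in TF group 2. Myod1 had means of 81.4 and 96.3, with a log2 change of 0.24 (adjusted p = 0.404). Of the 32, 15 lay below 32 in both groups. In the smooth muscle list 1 of 19 genes was called, the amine oxidase Aoc3, which fell 2.9-fold, also with the poly-A scaling. Acta2, smooth muscle actin, was among the brightest genes and had a log2 change of -0.09 (adjusted p = 0.532).

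**Figure D4:**
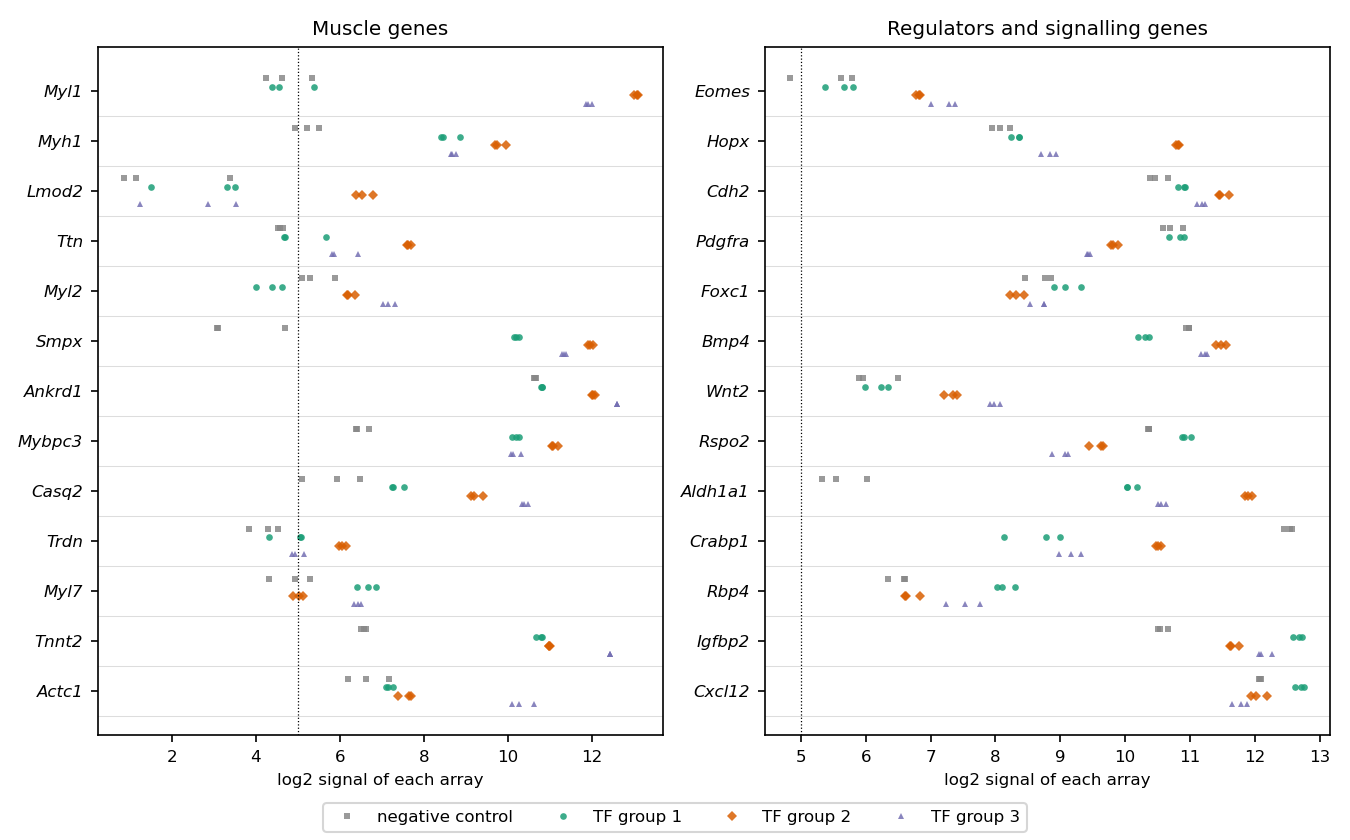
Log2 signal in each of the 12 arrays for muscle genes (left) and for regulators and signalling genes (right); each point is 1 array and the dotted line marks a signal of 32. Hopx, Aldh1a1 and Bmp4 are highest in TF group 2, Tnnt2 and Actc1 are highest in TF group 3, and the signals of Myl7 and Rspo2 drop from TF group 1 to TF group 2.

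Regulators of the early heart and mesoderm were mostly not called. Of 33 measured cardiac transcription factors that were not delivered, 1 was higher and 1 lower (median 0.02). The higher one was Hopx, a homeodomain protein of heart progenitors that binds no DNA itself, with 328, 304 and 331 in TF group 1 against 1764, 1817 and 1800.4 in TF group 2. It rose 5.59-fold (log2 change 2.48, SE 0.08, adjusted p = 5.52e-07) and was at 489.8, 415 and 456 in TF group 3 and 268, 299 and 247 in the negative control. Foxc1, a forkhead factor of mesenchyme, fell 1.71-fold, not with the poly-A scaling. Nkx2-5 and Hand2, core factors of the heart field, had log2 changes of 0.13 (adjusted p = 0.86) and 0.03 (adjusted p = 0.957) at dim signals.

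In the list of early mesoderm and epithelial-mesenchymal transition genes, 3 of 31 were higher and 2 lower, with a median of -0.12 (0.09 with the poly-A scaling). Eomes, a T-box factor that acts upstream of Mesp1 in the embryo, had 41.2, 55.7 and 51.0 in TF group 1 against 114, 110.0 and 114 in TF group 2. It was 2.3-fold higher (adjusted p = 0.0102), with 128, 156 and 166 in TF group 3. Cdh2, N-cadherin, rose 1.54-fold from bright signals, and the call was lost without TF group 2 replicate 2. Tbx6 rose at least 1.06-fold close to the floor, and the call was lost under 10 of the 22 alternatives run for it. Pdgfra, a receptor of cardiac mesoderm and fibroblasts, was at 1633, 1919.8 and 1846 in TF group 1 against 899, 952 and 877 in TF group 2, 1.98-fold lower with a call that held under the poly-A scaling. Ets2 fell 1.84-fold, but not there. Mesp2, the close relative of Mesp1, had a log2 change of 0.08 (adjusted p = 0.807). Smarcd3 aside, none of the 23 measured BAF complex subunits was called in limma's test (median 0.01). Of them 3 had an unadjusted p under 0.05, a count with no share of all genes beside it.

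Of 16 measured genes of retinoid signalling 4 were higher and 1 lower, against 2.16% and 1.94% of all genes, while the median of the list was -0.02 (0.20 with the poly-A scaling). Retinoic acid patterns the heart field in the embryo. Aldh1a1, an enzyme that makes it, went from 1049, 1045 and 1157 to 3691, 3966 and 3792 and was 3.52-fold higher (adjusted p = 7.91e-05). Crabp1, which binds it in the cytosol, went from 508, 282 and 439 to 1459, 1501 and 1426, 3.68-fold higher, and was at 5600.5, 6094 and 5989.6 in the negative control. Rarb, a receptor that the acid itself induces, rose 2.33-fold, and the call was lost without TF group 1 replicate 2 or 3 or any array of TF group 2. Cyp26a1, which degrades the acid, was called higher below 32 in both groups, so no fold is given. Rbp4, which carries retinol in blood, fell 2.74-fold from 317, 259.5 and 275 to 97.8, 98.1 and 115, also with the poly-A scaling.

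Wnt, BMP and growth factor genes moved in both directions. Of 36 Wnt genes 3 were higher and 4 lower, with a median of -0.08 (0.13 with the poly-A scaling). Wnt2, a ligand of early heart mesoderm, was 2.19-fold higher, at 81.5, 75.6 and 63.4 in TF group 1 against 163, 148 and 170.3 in TF group 2. Axin2, a feedback target of the pathway, was 1.51-fold higher and Apcdd1, an inhibitor, 1.68-fold, and neither passed with the poly-A scaling. Rspo2, a secreted agonist, fell 2.56-fold from 1922, 1874 and 2077 to 807, 793 and 699 (adjusted p = 1.41e-05). With Sfrp2, it kept its call under that scaling, while Ccn5 (-0.98) and Frzb (-0.66), another secreted Wnt binder, did not. Bmp4, a ligand that induces mesoderm and heart fate, was the 1 gene of 40 in the TGF-beta and BMP list that was higher, and 2 were lower (median 0.05). It had 1316, 1262 and 1178 in TF group 1 against 2861, 3001 and 2715 in TF group 2, a 2.28-fold rise (SE of the log2 change 0.06, adjusted p = 3.85e-06). The BMP antagonist Grem1 (-0.79) and the matrix protein Tgfbi (-0.79) were lower, not with the poly-A scaling.

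Of 44 growth factors and receptors 2 were higher and 5 lower, with a median of -0.09 (0.12 with the poly-A scaling). Besides Grp the higher one was Angptl4, an inhibitor of lipoprotein lipase, up 2.19-fold, which was lost when its probe sets were averaged. Igfbp2, a binding protein of insulin-like growth factors and among the brightest genes, went from 6189, 6808 and 6534 to 3181, 3475 and 3149.8, 1.99-fold lower. Kitl, the ligand of the Kit receptor, fell 2.15-fold, Igf2 1.75-fold and Igfbp4 1.67-fold. None of these 4 falls passed with the poly-A scaling. In the Notch list, 1 of 24 was higher, the ligand Dll1 (at least 2.48-fold, lost when some single arrays were left out), and 1 lower, the atypical ligand Dlk1 (-1.19, not with the poly-A scaling). The median was -0.01 (0.21 with that scaling).

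Of 33 measured chemokines and cytokines 9 were lower and 3 higher as deposited, against 1.94% lower and 2.16% higher over all genes. Their median was -0.27 (-0.05 with the poly-A scaling) and their summed signal went from between 18890 and 19740 to between 12530 and 12860. Cxcl5 and Cxcl1, which attract neutrophils, both fell. Cxcl5 went from 751, 535 and 768 to 297, 186 and 264, 2.76-fold lower. Cxcl1 went from 413, 488 and 409 to 259, 118 and 224, 2.29-fold lower. Il1rn, a natural antagonist of an interleukin receptor, fell 2.14-fold from 2460.2, 1982 and 2137 to 1094, 977 and 995. Under the poly-A scaling these 3 were not called. Ccl11 was below 32 in every array, so no fold is given, and its call held there. Among the higher ones, Cxcr4, the receptor of Cxcl12, stayed dim (11.6, 12.8 and 8.07 in TF group 1 against 39.2, 48.5 and 42.7 in TF group 2, at least 1.35-fold). The B cell attractant Cxcl13 reached 123, 125 and 125 from 17.0, 53.2 and 27.9, and without TF group 1 replicate 1 or 3 or any array of TF group 2 the call was lost. Tnfsf11 rose 1.56-fold, not with the poly-A scaling.

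Fibroblast matrix genes had the lowest median of the lists, -0.31 (-0.10 with the poly-A scaling), with 7 of 29 members above 0. Of the 29, 4 were called, 2 in each direction, against 2.16% higher and 1.94% lower over all genes. Col6a3, a chain of collagen VI, rose against the rest of the list, from 3323, 3384 and 3455 to 7961, 7941 and 7541. It was 2.31-fold higher (log2 change 1.21, SE 0.06, adjusted p = 2.60e-06), while its partner chains Col6a1 and Col6a2 had log2 changes of -0.48 (adjusted p = 2.99e-04) and -0.35 (adjusted p = 0.0121), under the fold threshold. Fbln1 rose 1.56-fold, and the small proteoglycan Fmod and the adhesion protein Dpt fell 1.64-fold and 1.73-fold. These 3 calls did not hold with the poly-A scaling. Lum, lumican, had the largest negative value of the list, with 4876, 4616 and 5926 in TF group 1 against 1965, 1492 and 2301 in TF group 2, but it was not called (log2 change -1.44, SE 0.43, adjusted p = 0.0704). The bright fibroblast markers Vim and Col1a1 had log2 changes of -0.20 and -0.33, and the summed signal of the list was between 178200 and 188400 in TF group 1 and between 154500 and 160900 in TF group 2. In the matrix remodelling list 4 of 31 were lower and none higher (median -0.18, and 0.03 with the poly-A scaling). Mmp13, a collagenase, fell at least 1.8-fold from 61.2, 50.5 and 61.9 to 11.2, 20.6 and 15.2, also with that scaling. Adamts5, Adamts1 and Mmp16, with falls of 1.79-fold, 1.56-fold and 1.55-fold, did not pass there.

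**Figure D5:**
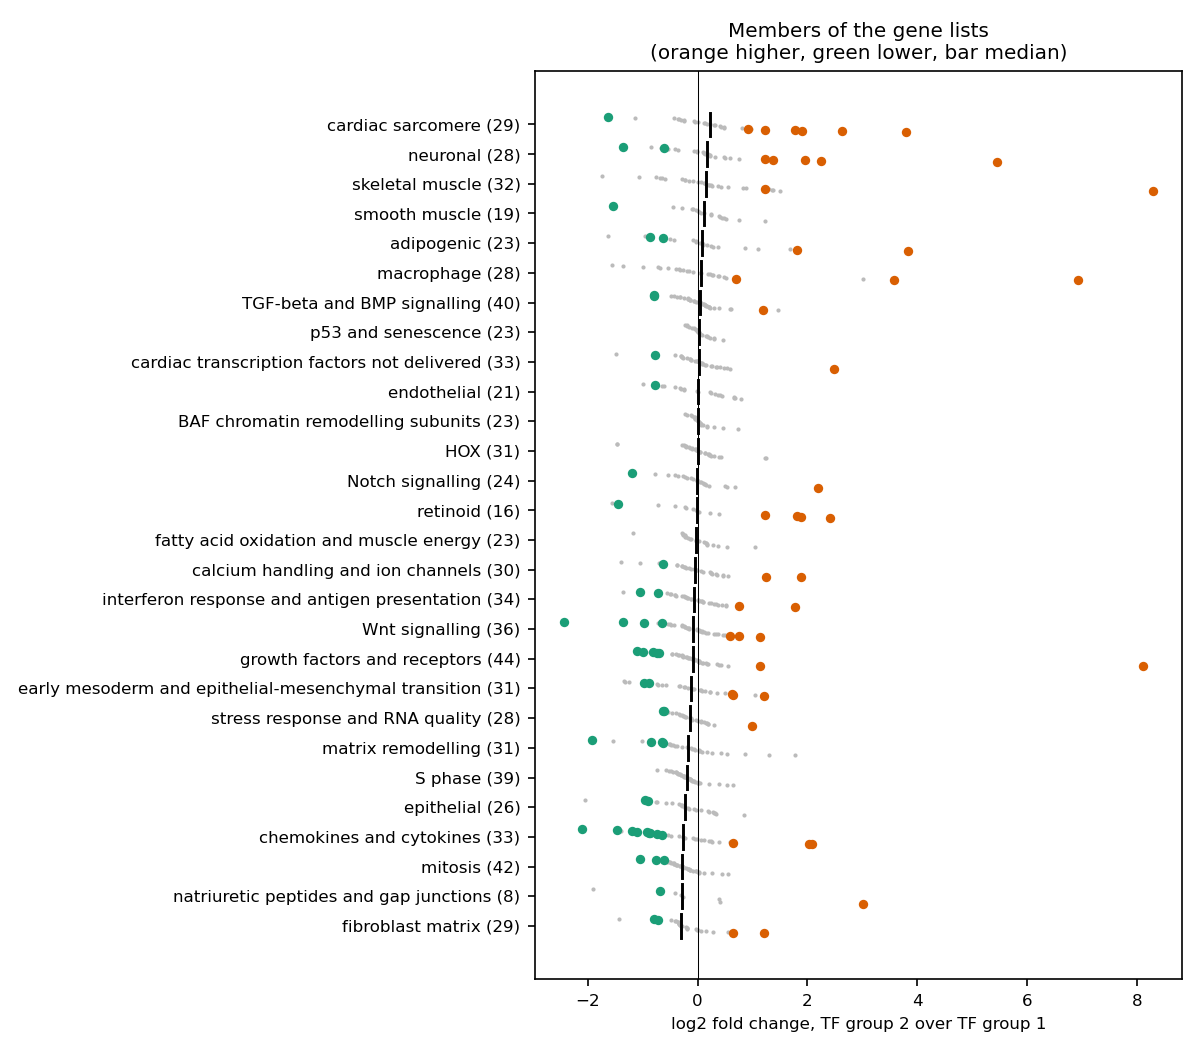
Log2 fold change of TF group 2 over TF group 1 for every measured member of 28 gene lists, with the number of measured members in brackets (orange called higher, green called lower, grey not called, black bar the median). The list medians lie between -0.31 and 0.23, and the genes furthest from 0 on the right, Myl1, Grp, F13a1 and Nefl, stand apart from the rest of their own lists.

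In the lists of markers of other cell types, most members were not called. Of 28 neuronal genes 5 were higher and 2 lower (median 0.17), against 2.16% higher and 1.94% lower over all genes. Besides Nefl the higher ones were Nefm, the medium neurofilament chain (3.89-fold, 263, 254 and 294 to 1022, 1111 and 1019), Scg2, a granin of secretory granules (4.72-fold), and, from low signals, Chga and Mapt. Against these, Tubb3 and Slc17a6 fell 1.52-fold and 2.58-fold, not with the poly-A scaling. Among the 21 not called, Rbfox3 and Syp, genes of mature neurons, were picked after values were seen. Their means were 38.6 and 43.7 in TF group 1 against 38.1 and 43.3 in TF group 2. The summed signal of the list was between 8262 and 9009 in TF group 1 and between 9013 and 9604 in TF group 2.

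F13a1 is also abundant in macrophages and is a member of the macrophage list. Whether the share of such cells differed between the groups was not tested. Of 28 genes 3 were higher and none lower (median 0.05), and the summed signal went from between 1356 and 1383 to between 4624 and 5086, of which F13a1 made up most. Csf1r rose 1.63-fold, not when its probe sets were averaged, and Cd163 reached 27.7, 37.3 and 32.5 from below 10 and lost its call without TF group 1 replicate 2 or 3 or any array of TF group 2. Of the 25 members not called, some are given here that were picked after values were seen. Ptprc, Tyrobp and Lyz2, genes of blood cells or macrophages, had means of 30.7, 3.33 and 38.4 in TF group 1. In TF group 2 they had 25.6, 4.67 and 23.9. Adgre1, which encodes a macrophage surface marker, had means of 57.3 and 50.4. Of 21 endothelial genes Plvap alone was called, lower by at least 1.65-fold, not with the poly-A scaling, and the summed signal was between 1275 and 1402 and then between 1280 and 1383. Of 26 epithelial genes Dsg2 (-0.96) and Spint2 (-0.91) were lower, neither of them with that scaling, and the sums were between 5723 and 5853 and between 5719 and 6023. In the adipogenic list 2 of 23 were higher, Car3 and the lipoprotein lipase gene Lpl, which rose 3.51-fold from 298, 237 and 268 to 961, 884 and 959.9, and Fabp4 and Dgat2 were lower (-0.87 and -0.64), not with that scaling.

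Cell cycle genes lay slightly lower. Of 42 mitosis genes 3 were called, all lower, and 7 were above 0, with a median of -0.28 (-0.07 with the poly-A scaling). Top2a, the topoisomerase of dividing cells, had 272, 339.8 and 302 in TF group 1 against 183, 207 and 207 in TF group 2, against 2164, 1995 and 2145 in the negative control. Its 1.53-fold fall and those of Bub1 (2.06-fold) and Cenpf (1.69-fold) did not pass with the poly-A scaling. Of 39 S phase genes none was called (median -0.20, and 0.02 with that scaling), with 20 at an unadjusted p under 0.05. The lists of p53 and senescence (23 genes), fatty acid oxidation and muscle energy (23) and HOX genes (31) held no called member either, with 6, 6 and 3 genes at an unadjusted p under 0.05 and medians of 0.02, -0.03 (0.18 with that scaling) and 0.00. No share of all genes at an unadjusted p under 0.05 is given here, so these counts have no background to be read against. In the stress list 1 of 28 was higher and 2 lower (median -0.13, and 0.08 with that scaling). Fos, an immediate early gene, was 1.98-fold higher, at 804, 795 and 836 in TF group 1 against 1568, 1622 and 1642 in TF group 2, and Mt2 and Txnip were lower (-0.63 and -0.62), not with the poly-A scaling. In the interferon list 2 of 34 were higher, Ifi204 (3.4-fold) and Usp18 (1.69-fold), and 2 lower, Gbp2 (-1.05) and Isg20 (-0.73), the latter pair not with the poly-A scaling, and the median was -0.06 (0.15 with it).

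The same genes were looked up in the arrays of the other groups. TF group 3, which carries the added factors as well, was set against the negative control. These 6 arrays gave no mean to the comparison of TF groups 2 and 1, but they entered its estimate of the spread and so its calls. Of the 268 genes higher with MESP1 and SMARCD3, 175 (65.3%) were higher in TF group 3 by this contrast and 8 (3.0%) lower, with a median log2 change of 1.15. Of all genes 14.9% were higher and 9.92% lower, with a median of 0.05. Of the 240 genes that were lower with the added factors, 81 (33.8%) were lower in TF group 3 and 49 (20.4%) higher, with a median of -0.18. These shares are descriptions, since TF group 3 also differs from the negative control by the 3 first factors and by MYOCD and SRF, and all calls use variances from the same fit.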

How the data were processed

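RNA of 12 MEF cultures, 3 in each of 4 groups, was hybridized to 430A 2.0 mouse arrays. The authors deposited 1 linear intensity per probe set and array. The submitters' processing notes name RMA and Partek without versions. RMA yields log2 output, but the deposited intensity is linear with a common trimmed mean (2% removed at each end), so the exact method behind them is not settled. Sample groups came from the labels.

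With R 4.3.3, log2 was taken of the deposited intensity, as the values were not in the log2 unit that the plan of the tests assumed. After 64 control probe sets were left out, limma 3.58.1 (lmFit and eBayes) estimated the mean of each group from all 12 arrays, with 8 residual degrees of freedom and Benjamini-Hochberg adjustment over all probe sets or genes. Of 22626 probe sets, 20380 carried 1 gene symbol, 691 several and 1555 none. Each of 12393 genes was represented by its brightest probe set on average. The number of arrays limits the precision. Log2 signals correlated across probe sets at r = 0.962 to 0.965 within and 0.954 to 0.957 between TF groups 1 and 2, and 21% to 22.3% of probe sets of these arrays lay below 32.

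Named genes were the 12 largest fitted increases and the 12 largest fitted decreases among called genes whose groups do not overlap, with a mean signal of at least 64 in the higher group, the delivered factors, at most 4 called genes per list and direction, and the genes of the study's PCR assays. List members named although not called were added after values were seen. The called genes Ankrd1, Mybpc3, Mapt and Cxcl12 also appear outside these rules, and the alternatives were not run for them. The comparison, the 29 gene lists and the rules were chosen with earlier results of these data known. Spikes and 18S rRNA were set against each other between the groups with exact permutation tests, and the fit was first tested on simulated data. The alternatives were other variance models, a replicate block, other scalings, an offset, a filter on dim probe sets, other thresholds, averaged probe sets and each array left out in turn. PCR, flow cytometry and imaging were not analysed here. Promoters are RefSeq windows on GRCm38.p6, which 203 of 268 higher and 183 of 240 lower genes had.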

Additional observations from a re-analysis of the deposited data

How the results depend on the processing

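Scaling the arrays to the poly-A spikes gave 59 probe sets and 42 genes lower, all of which were also called lower as deposited, and 311 probe sets and 245 genes higher. It ended the call of 43 of the 102 called genes named by the rules above. Which of these calls ended through the added spread of the spikes was not tested. An unadjusted p under 0.05 gave 731 probe sets and 412 genes higher and 747 probe sets and 407 genes lower. A fold over 2 gave 209 probe sets and 149 genes higher and 114 probe sets and 75 genes lower. With single arrays left out, the counts lay between 294 and 388 probe sets higher, 285 and 367 lower, 215 and 273 genes higher and 195 and 238 lower. The numbers of the arrays did not pair them, as deviations from the group means correlated at 0.02, 0.02 and -0.00 for the same number. A fit with the replicate number as a block gave 337 probe sets and 246 genes higher and 319 probe sets and 217 genes lower. No called gene named by these rules reversed its direction under the alternatives run for it. The median changed sign in 11 of 29 gene lists with the poly-A scaling and in 17 under at least 1 alternative.

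Calls of genes named by the rules above that ended without a single array are grouped by that array. Bub1, Cd163, Chga, Ctsj, Cxcl13, Dgat2, Dll1, Dsg2, Fabp4, Gja5, Gjb2, Lmod2, Rarb and Tbx6 were lost for at least 4 of the 6 arrays of TF groups 1 and 2, taken 1 at a time, and Ctsj, Dgat2 and Dll1 for some of the other groups too. In TF group 1, replicate 1 also ended Cxcl5, Cyp26a1, Slc17a6, Tnfsf11, Tubb3, Txnip and Vip. Replicate 2 ended Apcdd1, Asph, Cxcl1, Cyp26a1, Dpt, Frzb, Isg20, Tnfsf11 and Top2a. Replicate 3 ended Axin2, Cxcl5, Fbln1, Isg20, Mt2 and Vip. In TF group 2, replicate 1 ended Apcdd1, Axin2, Cyp26a1, Dpt, Igf2, Top2a, Tubb3 and Vip. Replicate 2 ended Adamts1, Apcdd1, Cdh2, Cxcl5, Fbln1, Igf2 and Smpx, and replicate 3 Dpt, Mmp16 and Tnfsf11. At a mean log2 signal below 5 the median SD between replicates was 0.82, against 0.05 above 11, which limits what can be called among dim probe sets.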
